A study of Mus musculus with 16 samples.

Results

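Bid, Casp12, Fasl and Mdm2 are 4 genes of programmed cell death, and their RNA was followed in the brains of newborn mice that lack or carry a reduced dose of a gap junction gene. They were taken as every spot that the annotation of the array platform assigns to one of these symbols, which gave 4 of the 10225 named genes on the array and 5 of its 28704 spots, since Mdm2 has 2 spots. All 4 genes passed the filter on missing values. They were picked with the results of the comparisons against wild type already known, so their differences from wild type are given as descriptions, with standard errors and 95% intervals but without a test.

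The study held 4 groups of 4 neonatal brain samples: Cx43 null, Cx43 heterozygous, Cx32 null and wild type. Astrocytes are coupled mainly through connexin 43, the product of Gja1, and mice without it die soon after birth. Connexin 32, the product of Gjb1, forms gap junctions of oligodendrocytes. Wild-type mice were C57BL/6j, and the 3 mutant lines were on a C57BL background; no treatment, Cre driver or transgene is named. For the Cx32 null samples the age comes from the descriptions, since their titles leave it out. Each brain sample, labelled with Cy3, shared an array with a Cy5 reference prepared once from pooled adult tissues of C57BL males and females (aorta, brain, heart, kidney, liver, lung, gonads, spleen and stomach). For wild-type replicates 3 and 4 the labels give the dye of the reference only, and a channel label of wild-type replicate 3 names replicate 2. The labels give neither the construction of the null alleles nor whether a sample is a single pup or a pool, so the errors below measure the spread between these samples. Every value is a log2 ratio of brain to reference with the median of its array set to 0, or the difference of such ratios between groups. A ratio belongs to its own spot, so the level of a gene is compared between groups and not with the level of another gene.

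The number of measured spots lay between 21010 and 24819 per array. The profile of each Cx43 null, Cx43 heterozygous and Cx32 null array correlated with the rest of the arrays at 0.87 to 0.95, and wild-type replicates 2 to 4 at 0.83 to 0.86. Wild-type replicate 1 stood apart at 0.64, and values without it are given for the 4 genes and Gja1, and for other genes where leaving it out ends a call or moves a difference by over 1.5 times. Gja1, the targeted gene of the Cx43 lines, averaged -1.83 ± 0.96 in Cx43 null, -1.36 ± 0.34 in Cx43 heterozygous, 0.11 ± 0.14 in Cx32 null and 1.56 ± 0.63 in wild-type brain (SD, n = 4 each). It differed from wild type by -3.40 in Cx43 null (adjusted p = 0.000355, limma with Benjamini-Hochberg adjustment), by -2.93 in Cx43 heterozygous (adjusted p = 0.000115) and by -1.46 in Cx32 null brain (adjusted p = 0.00986), where it is not the targeted gene. These differences were -3.09, -2.62 and -1.15 when wild-type replicate 1 was left out. The labels Cx43 null and Cx43 heterozygous were not told apart by this gene: the ratio was -0.60, -1.71, -2.10 and -2.92 in the Cx43 null brains and -1.09, -1.27, -1.25 and -1.86 in the Cx43 heterozygous brains. The brain labelled Cx43 null replicate 1 thus lay above all 4 labelled heterozygous, and the difference was -0.47 (adjusted p = 0.637, limma). No source used here says whether the Gja1 spot falls within the deletion. No spot is named Gjb1, so the Cx32 null label could not be checked in this way.

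Cell death can be started from outside the cell or from within. In the outer route Fas ligand binds the receptor Fas, the adaptor Fadd gathers initiator caspases, and Bid, once cleaved, carries the signal to the mitochondria, where Bax and Bak1 open the outer membrane and Bcl2 opposes them. Caspase 12 belongs to the group of inflammatory caspases by sequence and in mice has been linked to stress of the endoplasmic reticulum, and Mdm2 is the ubiquitin ligase that marks p53 for destruction and is itself induced by p53. In the newborn brain such cell death removes surplus neurons and glia.

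The 250 bases in front of each start site are shown so that the pair of genes with higher ratios in the connexin lines, Bid and Casp12, can be set beside the pair with lower ratios, Fasl and Mdm2. They come from the RefSeq promoter table for GRCm38.p6, which held all 4 genes, and run 5′ to 3′ on the strand of the gene. Capitals mark CCAAT and GGGCGG on either strand (ATTGG and CCGCCC on the other strand).
Fasl: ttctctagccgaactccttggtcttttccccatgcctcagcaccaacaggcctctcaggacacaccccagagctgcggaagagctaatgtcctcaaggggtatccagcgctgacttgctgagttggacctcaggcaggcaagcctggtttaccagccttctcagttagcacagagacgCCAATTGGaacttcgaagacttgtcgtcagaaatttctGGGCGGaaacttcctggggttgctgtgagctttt
Bid: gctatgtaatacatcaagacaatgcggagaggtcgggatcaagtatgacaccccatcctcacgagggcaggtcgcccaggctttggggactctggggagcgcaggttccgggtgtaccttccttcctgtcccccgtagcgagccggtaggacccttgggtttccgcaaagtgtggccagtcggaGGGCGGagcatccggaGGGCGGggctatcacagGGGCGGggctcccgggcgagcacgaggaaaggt
Casp12: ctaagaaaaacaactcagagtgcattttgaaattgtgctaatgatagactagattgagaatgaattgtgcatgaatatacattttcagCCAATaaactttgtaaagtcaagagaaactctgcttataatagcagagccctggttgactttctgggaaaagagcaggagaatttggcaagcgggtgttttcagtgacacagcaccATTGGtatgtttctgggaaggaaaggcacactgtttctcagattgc
Mdm2: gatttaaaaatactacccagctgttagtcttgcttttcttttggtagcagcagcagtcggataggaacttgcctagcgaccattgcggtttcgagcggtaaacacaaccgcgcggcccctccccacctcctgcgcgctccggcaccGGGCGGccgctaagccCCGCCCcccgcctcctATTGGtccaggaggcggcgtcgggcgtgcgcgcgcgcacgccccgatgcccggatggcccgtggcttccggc
The Fasl window lies at chr1:161788496-161788745 on the minus strand and that of Bid at chr6:120916825-120917074 on the minus strand. The Casp12 window lies at chr9:5345226-5345475 on the plus strand and that of Mdm2 at chr10:117710759-117711008 on the minus strand. The genes themselves span 161780691 to 161788495 on chromosome 1 (Fasl), 120893119 to 120917062 on chromosome 6 (Bid), 5345442 to 5373034 on chromosome 9 (Casp12) and 117688875 to 117710758 on chromosome 10 (Mdm2). The annotated extent of Bid covers nearly all of its window, including the GGGCGG matches, and that of Casp12 reaches into the end of its window. For both, the table starts from a start site inside the gene. The part of each transcript that its spot covers is not given.

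Base composition did not split the pairs. The G and C share was 63.6% in Bid and 39.2% in Casp12, against 53.6% in Fasl and 65.6% in Mdm2, beside a median of 52.4% over all 32851 promoters of the table. CCAAT, on either strand, occurred 2 times in Casp12, 2 times in Fasl (overlapping matches on opposite strands) and 1 time in Mdm2, and in 33.8% of all promoters. GGGCGG occurred 3 times in Bid, 1 time in Fasl and 2 times in Mdm2, and in 32.7% of all promoters. The decamer of a p53 half-site had 1 match in Fasl and 1 in Mdm2, and was found in 7.1% of all promoters. These matches start 115 bases (Fasl) and 186 bases (Mdm2) before the start site. With 2 genes in each pair, nothing is read from where they fall. TATAAA, present in 12.4% of promoters, and the endoplasmic reticulum stress element, present in 0.1%, had no match in the 4 windows. A match describes the letters in the window and nothing about the binding of a factor.

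**Figure D1:**
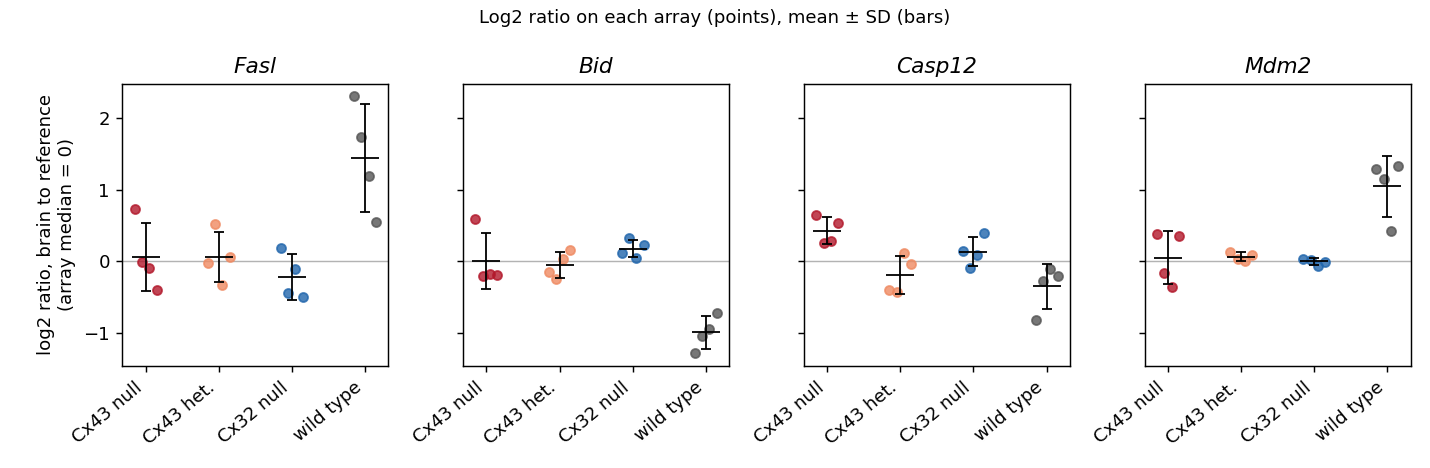
Log2 ratio of brain to reference, with the array median at 0, for Fasl, Bid, Casp12 and Mdm2 on each of the 16 arrays; points are arrays, bars the group mean ± SD (n = 4). The wild-type mean is the highest of the 4 for Fasl and Mdm2 and the lowest for Bid and Casp12, and the Casp12 mean is highest in Cx43 null brain.

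Fasl encodes Fas ligand, a membrane protein of the tumour necrosis factor family that kills cells bearing Fas, and it is best known from T cells and natural killer cells. Its ratio was 0.73, -0.01, -0.08 and -0.39 in the 4 Cx43 null brains and -0.02, 0.52, -0.33 and 0.06 in the 4 Cx43 heterozygous brains. It was 0.18, -0.45, -0.11 and -0.49 in Cx32 null brains, against 2.30, 1.73, 1.20 and 0.55 in wild-type brains. All 4 wild-type values lay above 0, but they were spread more widely than those of any line, and 1 Cx43 null brain (0.73) lay above the lowest wild-type brain (0.55). The other lines did not overlap with wild type, although the gap to Cx43 heterozygous brain was small. The difference from wild type was -1.38 ± 0.32 in Cx43 null, -1.39 ± 0.32 in Cx43 heterozygous and -1.66 ± 0.32 in Cx32 null brain (limma, ± SE), which is 2.61-fold, 2.61-fold and 3.16-fold lower. The 95% intervals ran from -2.05 to -0.71, from -2.05 to -0.72 and from -2.33 to -0.99. Without wild-type replicate 1, which held the highest Fasl value, the differences were -1.10, -1.10 and -1.38. In tissue RNA, fewer cells of a type and less RNA per cell cannot be told apart.

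Markers of the cells that usually make Fas ligand were scarce on the array. Of 16 T and natural killer cell markers, only Klrk1 and Ncr1 could be measured, and neither passed limma's test against wild type in any line (1, 0 and 0 of the 2 at an unadjusted p under 0.05). The median of these 2 markers per array ran from -0.89 to -0.05 in Cx43 null, from -0.71 to -0.43 in Cx43 heterozygous, from -1.14 to -0.46 in Cx32 null and from -1.49 to -0.40 in wild-type brain. Their part in the difference of Fasl was not tested. The receptor Fas differed from wild type by 0.08 in Cx43 null, 0.05 in Cx43 heterozygous and 0.21 in Cx32 null brain, and the adaptor Fadd by 0.49, 0.32 and 0.55. Neither passed the test.

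Bid encodes a BH3-only member of the BCL2 family that links death receptors to mitochondria. The 4 Cx43 null brains gave 0.59, -0.20, -0.18 and -0.18, and the 4 Cx43 heterozygous brains -0.15, -0.25, 0.04 and 0.17. The 4 Cx32 null brains gave 0.12, 0.32, 0.05 and 0.23, against -1.27, -1.04, -0.94 and -0.71 in wild type. Every brain of the 3 lines lay above every wild-type brain, with values near the array median, and Cx43 null replicate 1 stood above the other Cx43 null brains. Bid was higher than in wild type by 1.00 ± 0.19 in Cx43 null, 0.94 ± 0.19 in Cx43 heterozygous and 1.17 ± 0.19 in Cx32 null brain, or 1.99-fold, 1.92-fold and 2.25-fold. The 95% intervals were 0.59 to 1.40, 0.53 to 1.35 and 0.76 to 1.58. Leaving out wild-type replicate 1, which had the lowest Bid value, gave 0.90, 0.84 and 1.08.

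Casp12 encodes caspase 12, a protease that mice keep in working form and that is attached to the endoplasmic reticulum. Its ratio was 0.65, 0.25, 0.28 and 0.53 in Cx43 null brains, all 4 above 0. It was -0.39, -0.43, 0.11 and -0.03 in Cx43 heterozygous and 0.14, -0.09, 0.09 and 0.40 in Cx32 null brains, against -0.81, -0.27, -0.10 and -0.21 in wild-type brains. The order of the group means was Cx43 null, Cx32 null, Cx43 heterozygous and wild type, and the Cx43 heterozygous values overlapped with wild type. The Cx32 null values cleared wild type by a narrow margin, the lowest being -0.09 beside a highest wild-type value of -0.10. Against wild type the difference was 0.78 ± 0.19 in Cx43 null (interval 0.37 to 1.18), 0.16 ± 0.19 in Cx43 heterozygous (interval -0.24 to 0.57) and 0.48 ± 0.19 in Cx32 null brain (interval 0.08 to 0.89). These are 1.71-fold, 1.12-fold and 1.40-fold. Without wild-type replicate 1, where Casp12 was lowest, they were 0.62, 0.01 and 0.33.

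Casp12 was the member that set the lines apart from each other most. Cx43 null brain exceeded Cx43 heterozygous brain by 0.62 ± 0.19 (interval 0.21 to 1.02), and the lowest Cx43 null value, 0.25, lay above the highest Cx43 heterozygous value, 0.11. The direction rests on labels that Gja1 did not tell apart, and without Cx43 null replicate 1 the difference was 0.54. Cx32 null brain lay between the other lines: Cx43 null minus Cx32 null was 0.29 (interval -0.11 to 0.70), and Cx43 heterozygous minus Cx32 null was -0.32 (interval -0.73 to 0.08).

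Mdm2 encodes the E3 ubiquitin ligase that keeps p53 low. The mean of its spots was 0.38, -0.16, -0.35 and 0.35 in Cx43 null and 0.14, 0.03, 0.01 and 0.09 in Cx43 heterozygous brains. It was 0.04, 0.03, -0.06 and -0.004 in Cx32 null brains, against 1.29, 1.14, 0.43 and 1.34 in wild-type brains. All 4 wild-type values lay above all values of the lines, the nearest pair being Cx43 null replicate 1 (0.38) and wild-type replicate 3 (0.43). The SD of this mean was 0.06 in Cx43 heterozygous and 0.04 in Cx32 null brain, at percentile 3.7 and percentile 1.1 of the SDs of all transcripts in those groups. In Cx43 null brain it was 0.37, against 0.42 in wild-type brain. The single spots spread more, with SDs of 0.12 and 0.10 in Cx43 heterozygous and 0.07 (n = 3) and 0.06 in Cx32 null brain. Mdm2 differed from wild type by -0.995 ± 0.21 in Cx43 null (interval -1.43 to -0.56), -0.98 ± 0.21 in Cx43 heterozygous (interval -1.42 to -0.54) and -1.05 ± 0.21 in Cx32 null brain (interval -1.49 to -0.61). These are 1.99-fold, 1.97-fold and 2.07-fold lower. Without wild-type replicate 1 they were -0.92, -0.90 and -0.97.

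The spots of Mdm2 gave the same direction but not the same ratio. The second spot in table order read higher than the first on 14 of the 14 arrays with both values, by a median of 0.36 (range 0.03 to 1.09). On the first spot the ratios were 0.11, -0.34, -0.41 and 0.27 in Cx43 null, against 1.29, 0.60, 0.01 and 1.12 in wild-type brains, so the groups overlapped there. Cx43 heterozygous brains gave 0.020, 0.019, -0.232 and 0.009 on that spot, beside 0.007 in wild-type replicate 3, and so overlapped with wild type too. On the second spot they were 0.65, 0.01, -0.29 and 0.44 in Cx43 null, against 1.69, 0.85 and 1.55 in the 3 wild-type brains with a value. Spot by spot, the difference from wild type was -0.85, -0.80 and -0.94 on the first spot and -1.16, -1.18 and -1.23 on the second, for Cx43 null, Cx43 heterozygous and Cx32 null brain. Wild-type replicate 1 has a value on the first spot only and Cx32 null replicate 1 on the second only, so their Mdm2 values rest on a single spot. With a filter that asked for all 4 values in each group, Mdm2 could not be measured.

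**Figure D2:**
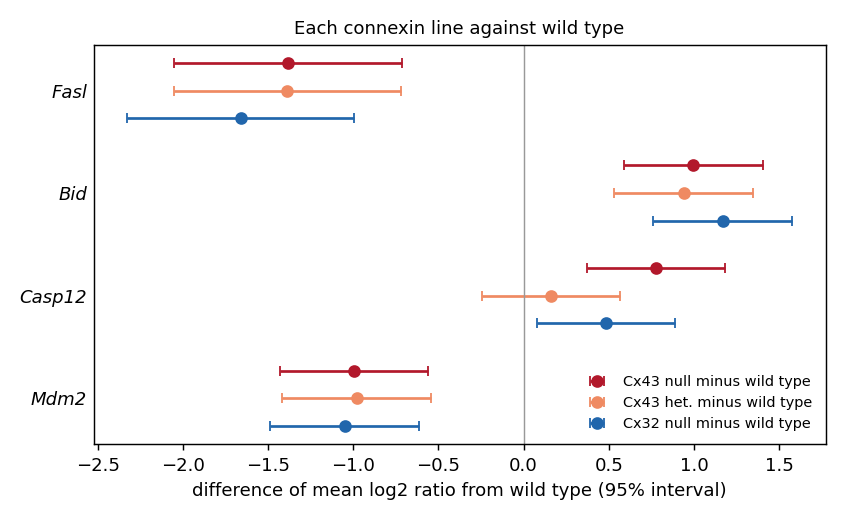
Difference of the mean log2 ratio from wild type for each gene in each connexin line, with its 95% interval from limma (x axis, log2 units). The intervals of Fasl and Mdm2 lie below 0 and those of Bid above 0 in all 3 lines, and that of Casp12 in Cx43 heterozygous brain spans 0.

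With an adjusted p under 0.05 over all 14292 transcripts as the threshold, 4 of the 4 genes passed in Cx43 null, 3 of 4 in Cx43 heterozygous and 3 of 4 in Cx32 null brain, Casp12 being the exception in both. Of all transcripts, 10.8% passed in Cx43 null, 31% in Cx43 heterozygous and 27.3% in Cx32 null brain. Values of line and wild type did not overlap for 3, 3 and 4 of the 4 genes, and for 12.9%, 31.1% and 27.8% of all transcripts. The genes were picked on these contrasts, so nothing is read from these counts. The 3 comparisons also share the wild-type arrays, so the likeness of their differences is not a separate result.

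Between the lines none of the 4 genes passed, where 1.46% of all transcripts did for Cx43 null against Cx43 heterozygous, 0.084% for Cx43 null against Cx32 null and 1.23% for Cx43 heterozygous against Cx32 null. At an unadjusted p under 0.05 limma counted 1, 0 and 0 of the 4 genes in these comparisons. The share of all transcripts at that unadjusted threshold is not given, so nothing is read from this count. Groups did not overlap for 1, 0 and 0 of the 4 genes, and for 12.4%, 7.88% and 14% of all transcripts. The widest gap between lines was 0.28 for Fasl (Cx43 null minus Cx32 null, interval -0.39 to 0.95), -0.23 for Bid (Cx43 heterozygous minus Cx32 null, interval -0.64 to 0.18) and 0.07 for Mdm2 (Cx43 heterozygous minus Cx32 null, interval -0.37 to 0.51). The intervals are too wide to show that the lines are alike.

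In the lines the mean ratios of Bid, Fasl and Mdm2 lay close to the array median, and in wild type they lay away from it. Casp12 did not follow this, with a mean of 0.43 in Cx43 null and -0.35 in wild-type brain. The mean ratio was nearer to 0 than in wild type for 3 of the 4 genes in Cx43 null (Casp12 was the exception) and for 4 of 4 in Cx43 heterozygous and in Cx32 null brain. The same held for 61.8%, 58.0% and 58.8% of all transcripts, and for 74.3%, 61.4% and 66.1% of those that passed against wild type. The median SD over transcripts was 0.27 in Cx43 null, 0.20 in Cx43 heterozygous, 0.21 in Cx32 null and 0.39 in wild-type brain. The part of this shift toward the median in the differences of the 4 genes was not tested.

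Bid and Casp12 sit 44 spots apart in the table, and around them Cx43 null replicate 1 was shifted as a block. The median of the 201 spots centred on the Bid spot was 0.55 on that array and between -0.11 and 0.12 on the other 15; around Casp12 it was 0.46 on that array and between -0.10 and 0.12 on the others. Relative to its own surroundings Bid read 0.04 and Casp12 0.19 on Cx43 null replicate 1. With every spot centred on its surroundings, the difference of Cx43 null from wild type was 0.85 for Bid and 0.65 for Casp12. Around Fasl the surrounding median ran from 0.12 to 0.21 on the Cx43 heterozygous arrays and from -0.47 to -0.14 on all others, and with local centring Fasl in Cx43 heterozygous brain differed from wild type by -1.83. The lowest correlation of an array with the others over the spots around a member was 0.61.

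**Figure D3:**
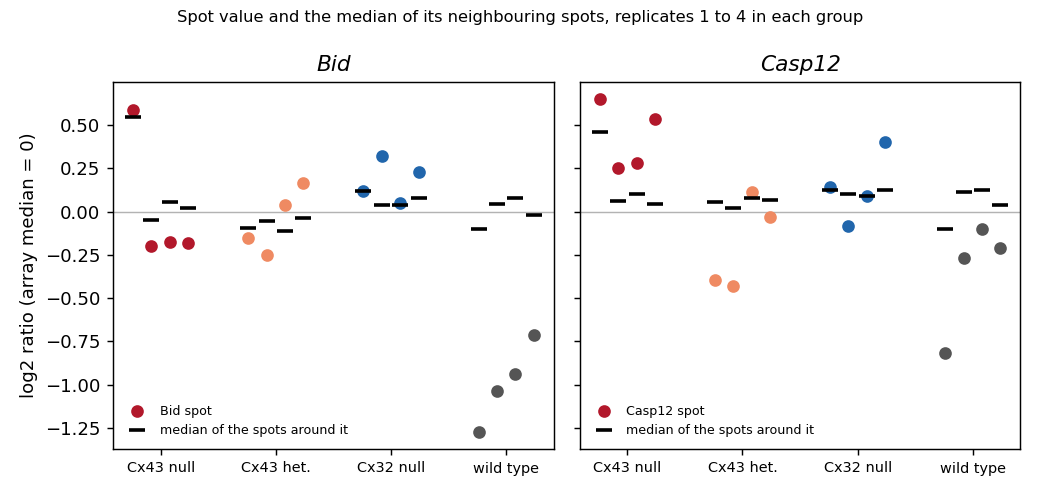
Log2 ratio of the Bid and Casp12 spots (points) and median of the spots around each of them (black bars) on replicates 1 to 4 of each group. On Cx43 null replicate 1 the surrounding medians are 0.55 and 0.46, and on all other arrays they stay between -0.11 and 0.12.

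Over the 16 arrays Bid and Casp12 had a Pearson r of 0.68, and 0.62 once group means were removed; after local centring the values were 0.54 and 0.43. Fasl and Mdm2 had an r of 0.77, and 0.17 once group means were removed. The arrays share 1 reference and fall into 4 groups, so these coefficients are descriptions. Among 8604 named genes, those whose ratios followed Fasl most closely over the arrays were EG546101 (r = 0.97), Arhgef10, a guanine nucleotide exchange factor (r = 0.95), and Clstn1, a neuronal membrane protein (r = 0.95). For Bid they were Nsd1, a histone methyltransferase (r = 0.94), Zfp280b (r = 0.93) and Tmem177 (r = 0.92). Casp12 had looser neighbours, Get1 (r = 0.82), Zmynd8 (r = 0.82) and the ubiquitin ligase Nedd4 (r = 0.81). Those of Mdm2 were Tmed2, a cargo protein of the early secretory pathway (r = 0.94), Actr3, a subunit of the actin-nucleating Arp2/3 complex (r = 0.93), and Asxl1 (r = 0.92). A coefficient above 0.9 was reached by 106 genes with Fasl, 22 with Mdm2, 7 with Bid and 0 with Casp12.

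The surrounding pathways were read from 5 lists of cell death and stress genes, of which 67 of 118 genes could be measured. Without the 4 members, 1 of 63 genes rose and 2 fell in Cx43 null brain (4.76%, beside 10.8% of all transcripts). In Cx43 heterozygous brain 6 rose and 17 fell (36.5%, beside 31%), and in Cx32 null brain 7 rose and 12 fell (30.2%, beside 27.3%). Without wild-type replicate 1 the counts were 0 up and 3 down (4.76%, beside 5.79% of all transcripts), 4 up and 16 down (31.7%, beside 27.6%), and 6 up and 13 down (30.2%, beside 23.2%). Between the lines 0 of the 63 passed in limma's test. At an unadjusted p under 0.05 limma counted 9 for Cx43 null against Cx43 heterozygous and 4 for Cx43 null against Cx32 null brain. It counted 6 for Cx43 heterozygous against Cx32 null brain. The share of all transcripts at that unadjusted threshold is not given, so nothing is read from these counts.

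**Figure D4:**
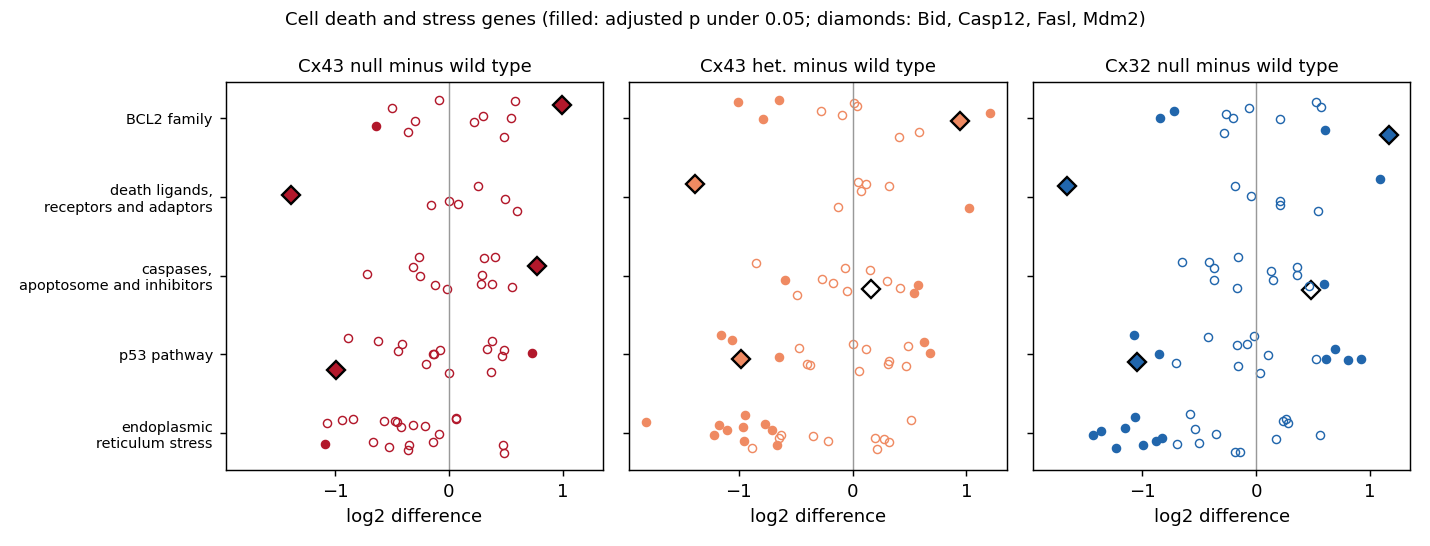
Log2 difference from wild type (x axis) of each measured gene of 5 cell death and stress lists (rows) in the 3 lines; filled points passed at an adjusted p under 0.05, and diamonds are Fasl, Bid, Casp12 and Mdm2. Passing genes of the endoplasmic reticulum stress row lie below 0 in all 3 lines.

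Of the 10 BCL2 family genes besides Bid, 1 fell in Cx43 null brain. In Cx43 heterozygous brain 3 fell and 1 rose, and in Cx32 null brain 2 fell and 1 rose. These are 10%, 40% and 30% of the list, beside 10.8%, 31% and 27.3% of all transcripts. Bak1, the pore former on which Bid acts, went opposite to Bid. It averaged 0.75 ± 0.31 in Cx43 null (SD, n = 3), 0.60 ± 0.15 in Cx43 heterozygous, 0.67 ± 0.12 in Cx32 null and 1.39 ± 0.20 in wild-type brain (SD, n = 4 each). It fell by 0.64, 0.79 and 0.72 (limma adjusted p = 0.0411, 0.0036 and 0.00736). The call in Cx43 null brain was lost without wild-type replicate 1 (-0.64, adjusted p = 0.0568), and likewise without wild-type replicate 2 or 3 or Cx43 null replicate 2 or 3, with differences from -0.81 to -0.53 over the 8 arrays left out in turn. Bcl2, which blocks that pore, rose by 1.20 in Cx43 heterozygous brain (adjusted p = 0.00423, limma), and Pmaip1, a BH3-only gene induced by p53, rose by 0.61 in Cx32 null brain (adjusted p = 0.0233, limma), a call lost without Cx32 null replicate 1, 2 or 4 (0.54 to 0.67 over the arrays left out). Bnip3l, a mitophagy receptor, fell by 1.00 in Cx43 heterozygous and 0.84 in Cx32 null brain (limma adjusted p = 0.00577 and 0.0176), or by 0.69 and 0.53 without wild-type replicate 1. Around 1 of its spots 1 array correlated with the rest at under 0.5, and around its others 0 did. The median difference of these 10 genes was 0.07, -0.04 and -0.13, close to the 0.01, -0.02 and -0.03 of all transcripts.

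Around Fasl, 0 of 6 other death ligand, receptor and adaptor genes passed limma's test in Cx43 null brain, beside 10.8% of all transcripts. At an unadjusted p under 0.05 limma counted 2 there. In each of the other lines 1 rose (16.7%), where 31% of all transcripts passed in Cx43 heterozygous and 27.3% in Cx32 null brain. That gene was Cflar, the inhibitor of caspase activation at death receptors, higher by 1.02 in Cx43 heterozygous (limma adjusted p = 0.0121) and by 1.09 in Cx32 null brain (limma adjusted p = 0.0103), where its groups overlapped and it was named after its values were seen. Around 1 of its spots 5 arrays correlated with the rest at under 0.5, and around its others 0 did. The median difference of the 6 genes was 0.17, 0.09 and 0.21.

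Around Casp12, 0 of 12 other caspase, apoptosome and inhibitor genes passed limma's test in Cx43 null brain. At an unadjusted p under 0.05 limma counted 1 there. In Cx43 heterozygous brain 2 rose and 1 fell, and in Cx32 null brain 1 rose. The shares were 0%, 25% and 8.33%, beside 10.8%, 31% and 27.3% of all transcripts. Without wild-type replicate 1, 1 rose and 1 fell in Cx43 heterozygous and 0 rose and 2 fell in Cx32 null brain. Birc6, a large inhibitor of apoptosis, was among them, higher by 0.57 in Cx43 heterozygous brain (limma adjusted p = 0.0307); this call was lost without Cx43 heterozygous replicate 1 or 2 or wild-type replicate 2 or 3 (0.44 to 0.65 over the arrays left out). The median difference of the 12 genes was 0.13, -0.06 and -0.01.

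Around Mdm2, 1 of 15 other p53 pathway genes rose in Cx43 null, 2 rose and 3 fell in Cx43 heterozygous, and 4 rose and 2 fell in Cx32 null brain. These are 6.67%, 33.3% and 40% of the list, beside 10.8%, 31% and 27.3% of all transcripts. With wild-type replicate 1 left out the counts were 0 up and 1 down, 1 up and 2 down, and 4 up and 2 down. Mdm4, the partner of Mdm2 in restraining p53, went the other way in Cx32 null brain. It averaged 0.50 ± 0.10 there, against -0.41 ± 0.33 in wild-type brain (SD, n = 4 each), a rise of 0.92 (limma adjusted p = 0.00591). Its mean also lay above wild type in Cx43 null (0.07 ± 0.24) and Cx43 heterozygous brain (0.07 ± 0.41), but did not pass. Without wild-type replicate 1 Mdm4 passed in Cx43 heterozygous brain too (0.62, limma adjusted p = 0.0362). Tigar, a metabolic target of p53, rose by 0.73 in Cx43 null and 0.81 in Cx32 null brain (limma adjusted p = 0.0375 and 0.0105). In Cx43 null brain the call was lost without wild-type replicate 1 (0.52, adjusted p = 0.0775), and for 6 of the 8 arrays left out in turn, wild-type replicate 4 and Cx43 null replicate 1 being the exceptions (0.52 to 0.90). Sesn1, a stress-response target of p53, fell by 1.06 in Cx43 heterozygous and 1.07 in Cx32 null brain (limma adjusted p = 0.0132 and 0.0146), or by 0.68 and 0.69 without wild-type replicate 1. Around 1 of its spots 1 array correlated with the rest at under 0.5, and around its others 0 did. The median of the 15 genes was -0.08, 0.06 and -0.02.

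The endoplasmic reticulum stress genes, the setting in which Casp12 is usually placed, passed in one direction only, downward. Of the 20, 4 in Cx43 null, 5 in Cx43 heterozygous and 5 in Cx32 null brain had differences above 0, none of which passed. In Cx43 null brain 1 of 20 fell (5%, beside 6.43% of all transcripts that fell), and this was Vcp, named after its values were seen. In Cx43 heterozygous brain 10 of 20 fell (50%, beside 17.5%), in Cx32 null brain 8 of 20 fell (40%, beside 14.3%), and 0 rose in limma's test in any line, where 4.37%, 13.5% and 13.1% of all transcripts did. Vcp, the ATPase that extracts misfolded proteins from the endoplasmic reticulum, averaged 1.08 ± 0.63 in Cx43 null, 0.36 ± 0.13 in Cx43 heterozygous, 0.81 ± 0.14 in Cx32 null and 2.17 ± 0.40 in wild-type brain (SD, n = 4 each). It fell by 1.09, 1.81 and 1.36 (limma adjusted p = 0.0196, 0.000213 and 0.0021); the Cx43 null call was lost without Cx43 null replicate 3 or 4 (-1.35 to -0.90 over the arrays left out). Hspa5, the main chaperone there, fell by 1.43 in Cx32 null brain (limma adjusted p = 0.00759), and Xbp1, the transcription factor of the unfolded protein response, fell by 1.22 in Cx43 heterozygous brain (limma adjusted p = 0.0156), a call lost without wild-type replicate 2 (-0.87). Xbp1 has 3 wild-type values. Hspa5 also passed in Cx43 heterozygous brain (-0.73 without wild-type replicate 1). Xbp1 also passed in Cx32 null brain, a call lost for 4 of the 8 arrays left out in turn (-1.62 to -0.81). Casp12, from another list, differed from wild type by 0.78, 0.16 and 0.48 and passed in Cx43 null brain only. In Cx43 heterozygous brain its interval spanned 0 (-0.24 to 0.57), and without wild-type replicate 1 the difference there was 0.01. The list's median difference was -0.39, -0.68 and -0.56, or -0.23, -0.53 and -0.35 once wild-type replicate 1 was left out, with 2, 10 and 7 genes falling (10%, 50% and 35%, beside 5.79%, 27.6% and 23.2% of all transcripts passing in either direction).

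Markers of cell types were measured beside these genes. Neuron markers, 7 of 12 measured, had array medians from 0.83 to 1.72 over all 16 arrays, above the reference tissue markers on 16 of 16. Astrocyte and radial glia markers, 5 of 10 measured, had array medians from 0.17 to 0.71 in Cx43 null, from 0.25 to 0.69 in Cx43 heterozygous, from -0.22 to 0.44 in Cx32 null and from 0.48 to 1.17 in wild-type brain. Red blood cell markers, 4 of 10 measured, had array medians from -2.83 to -1.16 in Cx43 null and from -2.58 to -2.21 in Cx43 heterozygous brain. They ran from -1.94 to -1.67 in Cx32 null and from -1.61 to -0.28 in wild-type brain. In Cx43 null, Cx43 heterozygous and Cx32 null brain 0, 3 and 2 of the 4 fell, beside 6.43%, 17.5% and 14.3% of all transcripts. Microglia markers, 7 of 14 measured, did not move one way. C1qa and C1qb fell in all 3 lines, and Itgam rose in Cx43 heterozygous and Cx32 null brain. Tyrobp rose in Cx43 heterozygous brain, a call lost for 7 of the 8 arrays left out in turn. These genes were named after their values were seen. Of the 7 markers 28.6%, 57.1% and 42.9% passed, beside 10.8%, 31% and 27.3% of all transcripts. In Cx43 null brain C1qa lost its call without wild-type replicate 1 (-1.34, adjusted p = 0.0636) and for 6 of the 8 arrays left out in turn (wild-type replicate 4 and Cx43 null replicate 1 excepted), and C1qb without Cx43 null replicate 3 or 4 or wild-type replicate 2. The array medians of the list ran from -1.38 to -0.72 in Cx43 null, from -0.90 to -0.64 in Cx43 heterozygous, from -1.55 to -0.69 in Cx32 null and from -1.09 to -0.68 in wild-type brain. Their part in the differences of Fasl, Bid, Casp12 and Mdm2 was not tested.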

How the data were processed

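The authors deposited a log ratio for each spot of each array, here read as log2 values; per the labels, neither the log base, the numerator, the background correction nor the normalization of an array is stated. The ratio was read as brain over reference, since 7 neuron markers had a higher median than 7 reference tissue markers on 16 of 16 arrays. All arrays ran in 1 dye orientation, no intensities were used, and depth over background is unknown. Of 28704 spots, 18511 carry a single symbol, 18267 of them updated through the gene identifier, and 937 list several. Each array was centred on its median. Spots with at least 3 of 4 values in each group were kept (19951) and averaged per symbol, giving 14292 transcripts.

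A model of the 4 group means over the 16 arrays was fitted in limma 3.58.1 and R 4.3.3 (lmFit, eBayes, 2-sided), with 6 contrasts and Benjamini-Hochberg adjustment over all transcripts of a contrast, threshold 0.05; missing values were left out, not imputed. The fit was tested on simulated data. Local medians took 100 spots on each side in table order; an array is said to depart from the rest where its local correlation with them was under 0.5. Same-numbered replicates gave correlations of deviations from -0.26 to 0.23 over 24 pairs, 4 of them over 0.1, so the numbers were not used as pairs. Counts at an unadjusted p under 0.05 are given without the share of all transcripts, and nothing is read from them. The 4 genes, the lists and the alternatives were chosen with earlier results of these data known. Besides the 4 genes and Gja1, the text names per list and line up to 2 passing genes in each direction with the largest change whose groups do not overlap, and per gene the 3 with the highest correlation over at least 14 arrays. Alternatives changed the scaling, the filter on missing values, the averaging of spots, the design, array weights and the arrays included.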

Additional observations from a re-analysis of the deposited data

Results flagged for a closer look

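An outlying array was looked for in 19 genes or spots: the 4 genes, Gja1, the Mdm2 spots and the list genes named by largest change. Other genes named above were not examined. Of 70 groups of 4 arrays, 4 held an array far from the other 3. Dixon's criterion, used here, marks about 1 in 20 groups by chance, or 3.5 of 70. Bid read 0.59 on Cx43 null replicate 1 and between -0.20 and -0.18 on the other Cx43 null arrays; the surrounding spots on that array had a median of 0.55, as given above. The first Mdm2 spot read -0.23 on Cx43 heterozygous replicate 3 and between 0.01 and 0.02 on the others. Mdm4 read 0.65 on Cx32 null replicate 4, against 0.45 to 0.47 on the others. Xbp1 read -1.34 on Cx43 heterozygous replicate 1, against -1.25 to -1.23 on the others.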

How the results depend on the processing

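Against wild type, no alternative turned the direction of Fasl, Bid, Casp12 or Mdm2. Fasl, Bid and Mdm2 kept their side of the threshold in Cx43 heterozygous and Cx32 null brain under all alternatives that gave a value (19 for Fasl and Bid, 18 for Mdm2), and Casp12 stayed short of it there. The genes were picked on these contrasts, so kept or lost calls describe the processing and are no support for a difference. In Cx43 null brain the calls were less stable. Fitted on the 2 groups alone, the differences were 1.00 (Bid), 0.78 (Casp12), -1.38 (Fasl) and -0.995 (Mdm2), but none passed, and 0 transcripts and 0 list genes did in limma's test. With 1 array left out, Casp12 ran from 0.62 to 0.86, Fasl from -1.68 to -1.10 and Mdm2 from -1.20 to -0.86. Casp12, Fasl and Mdm2 lost their calls without Cx43 null replicate 3, Casp12 and Fasl without Cx43 null replicate 4, and Fasl without wild-type replicate 2. Counts in that comparison ran from 114 (without Cx43 null replicate 3) to 2989 (without wild-type replicate 4) transcripts and from 1 to 12 list genes with 1 array left out, beside 1543 and 7 with all arrays. Array weights gave 3941 and 19, and averaging wild-type replicates 2 and 3, chosen after seeing the data, gave 790 transcripts. On the 2 groups alone, Cx43 heterozygous brain had 16 list genes instead of 26, and Cx32 null brain 12 instead of 22, with 2256 transcripts instead of 3908.

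Between lines, the values near 0 changed sign. For Cx43 null minus Cx43 heterozygous, Bid was -0.11 on values as deposited, -0.16 with local centring (chosen after seeing the data) and -0.11 with array weights; Fasl was -0.17 as deposited, -0.02 with quantile scaling, -0.008 with cyclic loess and -0.085 with array weights. For Cx43 null minus Cx32 null, Mdm2 was -0.025 as deposited, -0.032 with local centring and -0.063 with array weights. For Cx43 heterozygous minus Cx32 null, local centring gave -0.13 for Fasl and -0.03 for Mdm2. With 1 array left out, Cx43 null minus Cx43 heterozygous ran from -0.14 to 0.13 for Bid, -0.22 to 0.16 for Fasl and -0.12 to 0.12 for Mdm2, and Cx43 null minus Cx32 null ran from -0.055 to 0.19 for Mdm2. Casp12 in Cx43 null against Cx43 heterozygous brain passed with array weights only, where the difference was 0.48 (0.44 to 0.72 over all alternatives).

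Counts between lines also moved. Cx43 null against Cx43 heterozygous brain had 208 transcripts, 80 with all 4 values per group, 1847 with array weights and 82 to 212 with 1 array left out, and 0 list genes, 1 with at least 2 of 4 values, 11 with array weights and 0 to 1 with 1 array left out. Cx43 null against Cx32 null brain had 12 transcripts, 44 with quantile scaling, 22 with cyclic loess, 22 with at least 2 of 4 values, 5 with all 4 values, 7 on the 2 groups alone, 549 with array weights and 3 to 39 with 1 array left out, and 1 list gene with array weights. Cx43 heterozygous against Cx32 null brain had 176 transcripts, 268 with at least 2 of 4 values, 82 with all 4 values, 273 on the 2 groups alone, 918 with array weights and 73 to 182 with 1 array left out; its list genes numbered 1 as deposited, 1 with the median of spots, 1 on the 2 groups alone and 2 with array weights. The replicate block gave 6 transcripts for Cx43 null against Cx32 null; against wild type it gave 1584, 4438 and 3874, and it changed no call of Bid, Casp12, Fasl or Mdm2. The cause of these shifts was not tested. Precision is set by the 4 arrays of a group. Leaving out each array for the single genes of the lists was also chosen after seeing the data.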
